A study of Mus musculus with 141 samples.

Results

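The leukotriene and prostaglandin synthesis genes described here are 8 listed genes, Pla2g4a, Alox5, Alox5ap, Lta4h, Ltc4s, Ptgs1, Ptgs2 and Hpgds, of 46041 nuclear-encoded genes in the counts. They were chosen by name as enzymes of the pathway, and all 8 were matched to an Ensembl identifier. They were followed cell by cell in basophil/mast cell progenitors (BMCP) and granulocyte/monocyte progenitors (GMP) from the bone marrow of C57BL/6 mice. BMCP had been sorted as live Lin-, cKit+, Sca1- cells high for integrin beta7 and for CD16/32. GMP shared the Live, Lin-, cKit+ and Sca1- gates and were CD34+ and CD16/32hi outside the BMCP gate. Per the series' own design text, 3 female mice gave all cells, and the labels state no treatment, age or genetic change. Since no label links a cell to its mouse, each population is 1 sample and values are described without a test.

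Both families of lipid mediators start from arachidonic acid. Cytosolic phospholipase A2 alpha, the product of Pla2g4a, frees it from membranes. The enzyme 5-lipoxygenase (Alox5), helped by its activating protein (Alox5ap), turns it into leukotriene A4. Leukotriene A4 hydrolase (Lta4h) makes LTB4 from that intermediate, an attractant of neutrophils, and leukotriene C4 synthase (Ltc4s) makes LTC4, which gives the cysteinyl leukotrienes. The cyclooxygenases (Ptgs1, Ptgs2) make the prostaglandin precursor PGH2, from which hematopoietic prostaglandin D synthase (Hpgds) makes PGD2. Mature mast cells are known for LTC4 and PGD2, and neutrophils for LTB4.

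The members lie on 6 chromosomes (GRCm38, 1-based). Pla2g4a (ENSMUSG00000056220) spans chr1:149829618-149961290 on the minus strand, and Ptgs2 (ENSMUSG00000032487) spans chr1:150100031-150108227 on the plus strand. They lie 138741 bases apart, with 3 annotated genes and 0 coding genes between them. Ptgs1 (ENSMUSG00000047250) is at chr2:36230426-36252272, Alox5ap (ENSMUSG00000060063) at chr5:149264767-149288153 and Lta4h (ENSMUSG00000015889) at chr10:93453411-93484875, all on the plus strand. Hpgds (ENSMUSG00000029919) at chr6:65117293-65144908, Alox5 (ENSMUSG00000025701) at chr6:116410077-116461178 and Ltc4s (ENSMUSG00000020377) at chr11:50236461-50238616 are on the minus strand. Opposite-strand genes share 26.4% of the exon bases of Ltc4s, 13.3% of Alox5ap and 3.81% of Ptgs1. Strand is not marked by the protocol, and reads in those stretches cannot be assigned to either gene.

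RefSeq promoter windows (GRCm38.p6, 250 bases before to 50 after the start) were matched for 7 members. Those of Alox5, Hpgds and Lta4h are printed because the comparison of the populations turns on these 3 genes. They are on chr6:116461129-116461428 (minus strand), chr6:65144681-65144980 (minus strand) and chr10:93453146-93453445 (plus strand). Capitals mark the core letters of 2 motifs, GATAA for GATA factors and GAGGAA for PU.1, read on both strands, so that TTCCTC is the second motif in reverse.
Alox5: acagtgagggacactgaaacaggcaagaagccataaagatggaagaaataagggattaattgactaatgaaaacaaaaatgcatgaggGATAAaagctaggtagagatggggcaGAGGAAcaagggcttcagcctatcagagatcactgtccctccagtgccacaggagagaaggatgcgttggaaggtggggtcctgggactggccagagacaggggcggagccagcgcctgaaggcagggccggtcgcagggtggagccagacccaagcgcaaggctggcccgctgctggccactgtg
Hpgds: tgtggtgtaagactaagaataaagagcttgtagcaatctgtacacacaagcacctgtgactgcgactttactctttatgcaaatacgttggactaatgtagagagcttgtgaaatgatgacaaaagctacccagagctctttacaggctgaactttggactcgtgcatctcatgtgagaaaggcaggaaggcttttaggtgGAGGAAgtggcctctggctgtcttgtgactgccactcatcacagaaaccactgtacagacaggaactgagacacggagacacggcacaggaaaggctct
Lta4h: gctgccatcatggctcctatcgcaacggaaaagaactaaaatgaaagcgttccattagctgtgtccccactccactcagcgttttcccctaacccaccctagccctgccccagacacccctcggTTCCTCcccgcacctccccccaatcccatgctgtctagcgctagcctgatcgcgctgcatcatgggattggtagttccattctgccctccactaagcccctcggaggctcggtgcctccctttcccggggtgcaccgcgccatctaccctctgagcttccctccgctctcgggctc
The letters GATAA, or TTATC, were found for 2 of 7 members, Alox5 and Pla2g4a, and in 25.4% of 32851 promoters of the same length. For Pla2g4a they lay in 1 of its 2 windows. The letters GAGGAA were found for 6 of 7 members and in 28.3% of all promoters. A GC box, GGGCGG, was found for Alox5 and Ptgs2 and in 35.7% of all promoters. TGTGGT, the RUNX core, was found for Hpgds, Ltc4s and Ptgs2 and in 16.8% of all promoters. A match is a run of letters in a window and not a bound site.

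After filtering, 89 BMCP held 84242320 counts in nuclear-encoded genes (median 893037 per cell, 96129 to 2416630), and 41 GMP held 55520835 (median 1309887, 130191 to 3688848). The median number of genes with a count was 5440 in BMCP and 7001 in GMP. Levels are counts per 1000000 nuclear-encoded counts (CPM), and a population's level is that of its summed counts with an exact 95% Poisson interval. For shares, each cell was thinned at random to 200000 reads, which 86 BMCP and 40 GMP reached, and a gene was called detected at 10 or more of them. Intervals cover counting error only, since the reads carry no molecular identifiers and are not independent molecules. Fewer cells with a transcript and less transcript per cell cannot be told apart in a summed level, and the shares are given for that reason. The 4 early granulocyte markers, Mpo, Elane, Prtn3 and Ctsg, summed to 1.05 to 2921 CPM per BMCP (median 7.42) and 541 to 99557 CPM per GMP (median 46231). The 4 mast cell markers, Gzmb, Cma1, Mitf and Tpsb2, summed to 39.3 to 43324 CPM per BMCP (median 6513) and 0 to 64.5 CPM per GMP (median 1.34). In BMCP, Gzmb alone had a median of 5565 CPM and was detected in 85 of the 86 cells. Cma1 was detected in 28 of them, Mitf in 29 and Tpsb2 in 1, so the typical sum rests mostly on Gzmb. Tpsb2 was at 0 in GMP.

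Of the 8 members, 3 were at least 2-fold higher in BMCP (Alox5, Hpgds and Ptgs2), 2 were at least 2-fold lower (Lta4h and Ptgs1), and 3 lay within 2-fold. Among all 14554 genes with at least 1 CPM in either population, 25.8% were at least 2-fold higher in BMCP, 21% at least 2-fold lower and 46.8% apart in either direction. For a set of 8 genes, 5 apart is not far from that background, and nothing particular to the pathway is read from the count. Folds and log2 ratios are on the scale of summed CPM plus 1. The median log2 ratio of BMCP over GMP was 0.15 over the members and 0.04 over all genes.

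**Figure D1:**
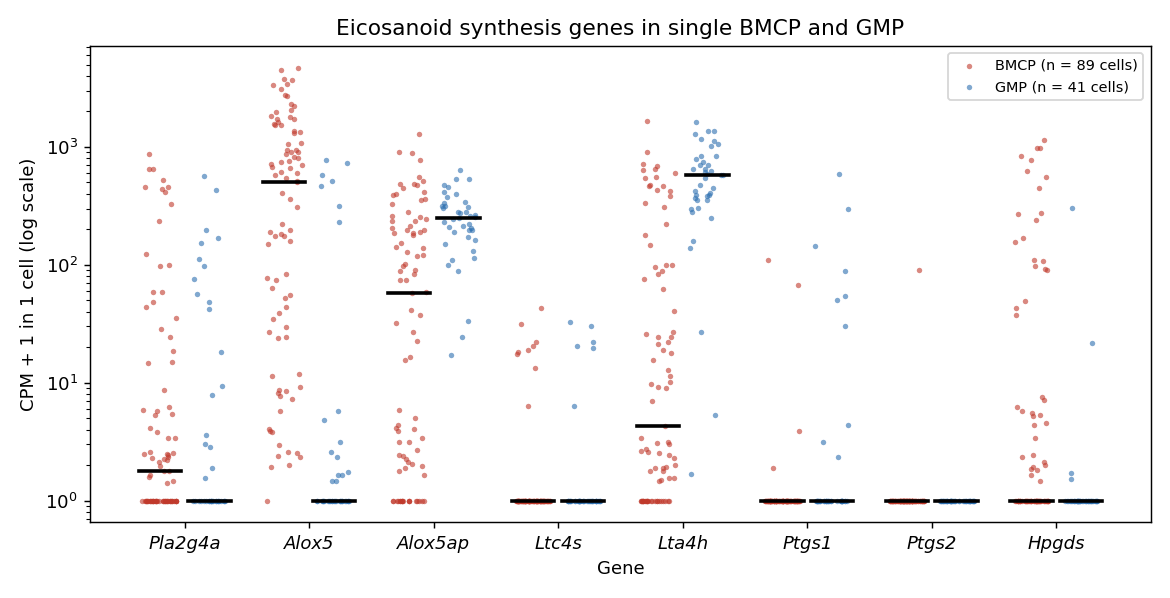
CPM plus 1 on a log axis (y) of the 8 members (x), with 1 point per cell for 89 BMCP (red) and 41 GMP (blue) and black bars at the median over cells. Alox5 has its median at 505 CPM in BMCP and 0 in GMP, and Lta4h at 3.26 and 573 CPM.

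Arachidonate release began with a gene read in few cells. Pla2g4a ranged from 0 to 878 CPM in single BMCP, with a median of 0.798 CPM, and from 0 to 565 CPM in single GMP, with a median of 0. The cells of both populations overlapped over nearly the whole range. No read was found in 39 of 89 BMCP and 22 of 41 GMP. Summed over cells it came to 74.9 CPM (73.05 to 76.8) in BMCP against 52.4 CPM (50.5 to 54.3) in GMP, a log2 ratio of 0.51, or -0.35 with levels set to the spike-in reads. In GMP, 38.3% of the reads came from replicate 6, without which the level was 33.9 CPM. Pla2g4a was detected in 17 of the 86 BMCP (19.8%, 11.96 to 29.8) and in 10 of the 40 GMP (25%, 12.7 to 41.2). Detected BMCP held a median of 326 CPM and detected GMP 131 CPM.

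The first committed step of the leukotriene arm was the main BMCP transcript of the set. Alox5 ranged from 0 to 4712 CPM in BMCP, with a median of 505 CPM, the highest cell being BMCP replicate 33. In GMP it ranged from 0 to 776 CPM with a median of 0. A read was missing in 1 of 89 BMCP and 24 of 41 GMP. The highest GMP lay within the BMCP range, so the populations overlapped, but most GMP lay at the bottom of it. The level over all cells was 892 CPM (885 to 898) in BMCP against 87.3 CPM (84.8 to 89.8) in GMP, a 10.1-fold difference (log2 3.34). Alox5 was detected in 59 of the 86 BMCP (68.6%, 57.7 to 78.2) and in 7 of the 40 GMP (17.5%, 7.34 to 32.8).

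The GMP reads of Alox5 sat in few cells. The 7 GMP with detection held 776, 726, 575, 513, 464, 313 and 228 CPM, in replicates 12, 20, 3, 30, 21, 34 and 31. The next GMP, replicate 24, held 4.77 CPM, so the GMP fell into cells with a high level and cells at or near 0. All 7 also had Gata2 and Cpa3 at 10 or more reads. Gata2 is a transcription factor of basophils and mast cells, and Cpa3 a carboxypeptidase gene listed as a marker of both. Over all 40 GMP, Gata2 was detected in 18 and Cpa3 in 20. In these 7 cells Gata2 ran from 166 to 2144 CPM and Cpa3 from 1105 to 4706 CPM. Of the same marker list, Slc18a2 ran from 132 to 2707 CPM and Ms4a2, an IgE receptor subunit gene, from 0 to 2581 CPM in them, with 0 in replicates 34 and 31. Fcer1a had no read in any GMP, and Hdc, the histamine-forming enzyme gene, was detected in 30 of the 40 GMP. Gata2 did not imply Alox5, since 18 GMP had Gata2 and 11 of them lacked Alox5. GMP replicates 24 and 8 held Gata2 at 1789 and 1582 CPM with Alox5 at 4.77 and 0 CPM. Gzmb, granzyme B, was at 0 to 2.63 CPM in these 7 cells, against a summed level of 6516 CPM in BMCP. Mpo, myeloperoxidase of the neutrophil lineage, spread over 1038 to 36158 CPM in them. The part of these marker genes in the GMP level of Alox5 was not tested.

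Alox5ap, the membrane protein that presents arachidonate to 5-lipoxygenase, ran across both populations. It ranged from 0 to 1278 CPM in BMCP, with a median of 56.9 CPM, and from 16.1 to 641 CPM in GMP, with a median of 246 CPM. Every kept GMP had a read of it, and 18 of 89 BMCP had none. The pooled counts gave 155 CPM (153 to 158) in BMCP against 262 CPM (257 to 266) in GMP, a log2 ratio of -0.75, within 2-fold. The ratio was -1.61 with levels set to the spike-in reads and -1.23 for BMCP numbers 48 to 94 alone, both at least 2-fold lower in BMCP. It was detected in 43 of the 86 BMCP (50.0%, 39.02 to 60.98) and in 38 of the 40 GMP (95%, 83.1 to 99.4). The highest BMCP, replicate 12, also had the highest Mpo of the BMCP, at 389 CPM, and Gzmb at 30.4 CPM. Without it the BMCP level was 142 CPM.

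The enzymes that use leukotriene A4 differed in where they were read. Lta4h ranged from 0 to 1648 CPM in BMCP, with a median of 3.26 CPM, and from 0.681 to 1617 CPM in GMP, with a median of 573 CPM. The ranges overlapped, but the middle of the GMP lay far above that of the BMCP. Its summed level came to 116 CPM (113 to 118) in BMCP against 626 CPM (620 to 633) in GMP, 5.37-fold higher in GMP (log2 -2.43). Lta4h was detected in 27 of the 86 BMCP (31.4%, 21.8 to 42.3) and in 37 of the 40 GMP (92.5%, 79.6 to 98.4). Among GMP it was lowest in replicates 24, 20 and 15, at 0.681, 4.27 and 25.7 CPM. Mpo stood at 509, 1038 and 28920 CPM in these cells in the same order, against a GMP level of 31492 CPM, so low Lta4h did not always go with low Mpo.

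Ltc4s was at the edge of detection in both populations. It had no read in 80 of 89 BMCP and 35 of 41 GMP. The highest values were 42.3 CPM in BMCP replicate 18 and 32.05 CPM in GMP replicate 20. Over all cells the level stood at 2.09 CPM (1.79 to 2.42) in BMCP against 2.59 CPM (2.19 to 3.05) in GMP, on 176 and 144 reads, a log2 ratio of -0.22 that changed sign in 2 of 15 alternatives. It was detected in 1 of the 86 BMCP (1.16%, 0.0294 to 6.31), replicate 26, and in 0 of the 40 GMP, which allows a share of up to 7.50%. At 2 reads it was found in 7 BMCP and 5 GMP. Whether so few reads could have leaked from another library was not tested. Levels this low lie where a cell's single transcripts may be missed, so a lack of detection is not a lack of expression.

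**Figure D2:**
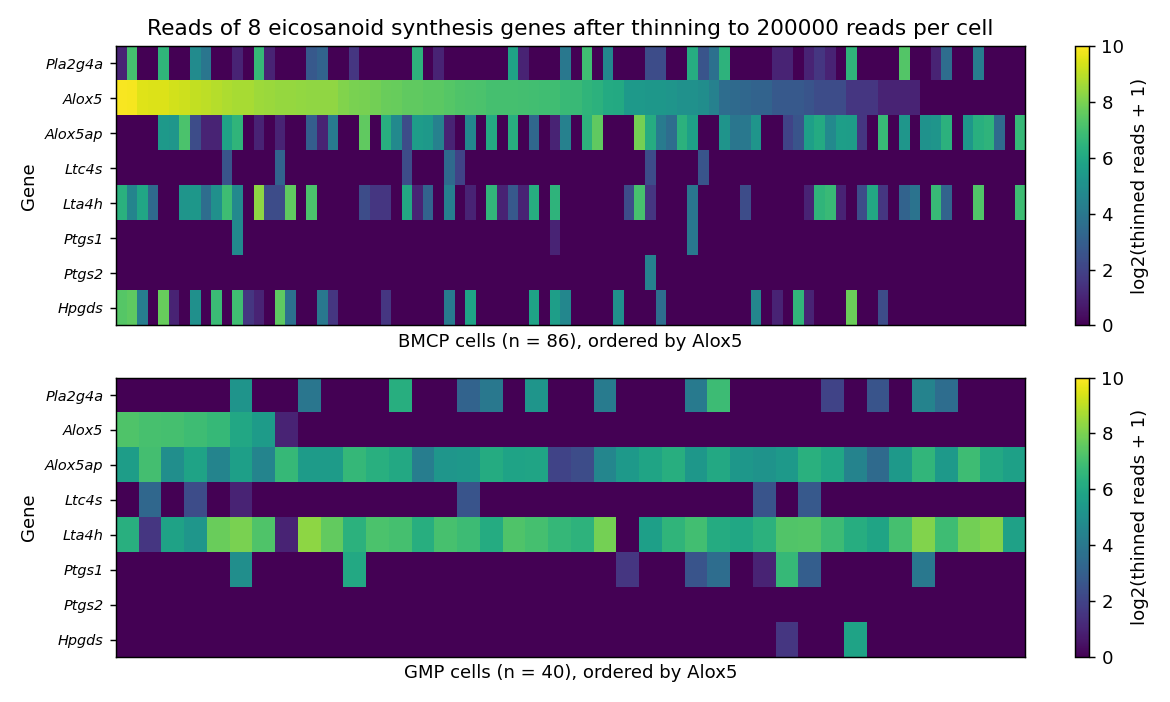
log2 of thinned reads plus 1 (color) of the 8 members (rows) in each cell (columns), for 86 BMCP above and 40 GMP below, both ordered by Alox5. At 10 reads or more Alox5 fills 59 of the 86 BMCP columns and 7 of the 40 GMP columns, whereas Alox5ap and Lta4h fill 38 and 37 of the 40 GMP columns.

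The cyclooxygenases were rare. Ptgs1, the constitutive form, had no read in 85 of 89 BMCP and 31 of 41 GMP. Its highest values were 110 CPM in BMCP replicate 63 and 584 CPM in GMP replicate 33. Summed over cells it came to 3.32 CPM (2.95 to 3.74) in BMCP against 26.4 CPM (25.07 to 27.8) in GMP, 6.34-fold higher in GMP. Without those top cells, which held 67.5% and 52.2% of the reads, the levels were 1.10 and 12.9 CPM. Ptgs1 was detected in 2 of the 86 BMCP (2.33%, 0.283 to 8.15) and in 5 of the 40 GMP (12.5%, 4.19 to 26.8), and these intervals overlap. Ptgs2, the inducible form, had all its 110 reads in BMCP replicate 27, at 88.8 CPM, and none in the other 88 BMCP or in any of the 41 GMP. Its summed level of 1.31 CPM in BMCP is at least 24.2-fold above the GMP floor of 3 counts over the group, 0.0540 CPM, yet it is the level of that 1 cell.

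Hpgds, the PGD2-forming enzyme, was a transcript of a minority of BMCP. It ranged from 0 to 1150 CPM in BMCP, the highest being replicate 1, and its median was 0, with no read in 49 of 89 cells. In GMP 37 of 41 cells had no read, and the highest, replicate 39, held 300 CPM. The pooled counts gave 88.99 CPM (86.99 to 91.03) in BMCP against 8.59 CPM (7.84 to 9.40) in GMP, a 9.38-fold difference (log2 3.23). GMP replicate 39 held 93.9% of the GMP reads, and the GMP level was 0.537 CPM without it. Hpgds was detected in 20 of the 86 BMCP (23.3%, 14.8 to 33.6) and in 1 of the 40 GMP (2.50%, 0.0633 to 13.2). Detected BMCP spanned 41.8 to 1150 CPM with a median of 253 CPM.

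Levels of different genes were compared per kilobase of annotated exon. In BMCP the order of summed level was Alox5 (217 CPM per kb), Alox5ap (109), Lta4h (18.97), Hpgds (13.9), Pla2g4a (11.7), Ltc4s (2.06), Ptgs1 (0.856) and Ptgs2 (0.285). In GMP it was Alox5ap (184 CPM per kb), Lta4h (103), Alox5 (21.3), Pla2g4a (8.19), Ptgs1 (6.80), Ltc4s (2.56), Hpgds (1.34) and Ptgs2 (0). The spread between cells was wider than most steps in these orders. In BMCP the central cells, from the lower to the upper quartile, spanned 6.33 to 325 CPM per kb for Alox5 and 0.740 to 149 CPM per kb for Alox5ap, so these neighbours overlapped. In GMP they spanned 120 to 223 CPM per kb for Alox5ap and 57.8 to 129 CPM per kb for Lta4h, which overlapped as well. Within single cells, Alox5 exceeded Lta4h per kb in 77 of 89 BMCP, and Lta4h exceeded Alox5 in 36 of 41 GMP. No read limit was set for this order, so cells with very few reads of both genes are counted in it. For example, BMCP replicate 38 had 1 read of Alox5 and 0 of Lta4h, and replicate 79 had 1 read of each.

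**Figure D3:**
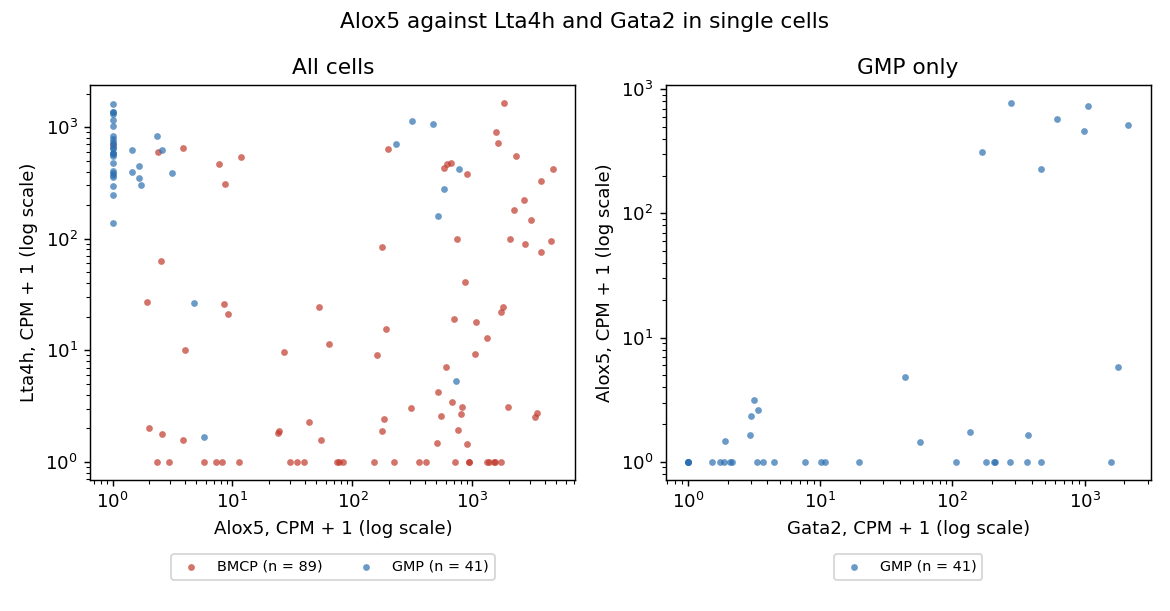
Left, Lta4h against Alox5 in 89 BMCP (red) and 41 GMP (blue); right, Alox5 against Gata2 in the 41 GMP; every axis is CPM plus 1 on a log scale. The 7 GMP between 228 and 776 CPM of Alox5 all have Gata2 at 166 CPM or more, and GMP replicates 24 and 8 have high Gata2 with Alox5 at 4.77 and 0 CPM.

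Whether 1 cell held a whole route was asked at 10 reads for every step. The LTC4 route needs Pla2g4a, Alox5, Alox5ap and Ltc4s, and it was found in 0 of the 86 BMCP (up to 3.49%) and in 0 of the 40 GMP (up to 7.50%). Without the release step it was still found in 0 cells of both. With the limit at 2 reads, 1 BMCP held the route, replicate 27, with Pla2g4a at 17.8, Alox5 at 160, Alox5ap at 396 and Ltc4s at 19.4 CPM. That cell also held all reads of Ptgs2. Without the release step, 3 BMCP (replicates 27, 48 and 91) and 2 GMP (replicates 20 and 30) held it at 2 reads. The LTC4 counts thus depend on the read limit. The step that ended the route was Ltc4s, since 7 BMCP had the other 3 genes.

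The LTB4 route, with Lta4h in place of Ltc4s, was found in 1 of the 86 BMCP (1.16%, 0.0294 to 6.31) and in 1 of the 40 GMP (2.50%, 0.0633 to 13.2). In BMCP replicate 44 the thinned reads were 72 for Pla2g4a, 32 for Alox5, 51 for Alox5ap and 14 for Lta4h. That cell held Mki67, a proliferation marker, at 1582 CPM, the highest of the BMCP, with Gzmb at 1501 and Mpo at 5.24 CPM. In GMP replicate 34 the thinned reads were 35, 62, 49 and 250 in the same order, with Mpo at 36158 CPM. Both cells also had Ptgs1 at 10 or more reads, and with 5 of the 8 members each they were among the cells with the most members. Each had the lowest spike-in share of the kept cells of its population, 3.42% in the BMCP (median 11.3%) and 3.50% in the GMP (median 5.92%). Genes with a count numbered 7084 in the BMCP (median 5440) and 7200 in the GMP (median 7001). Doublets were not called, and the part of RNA content in these 2 cells was not tested.

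Without the release step the LTB4 route was found in 6 of the 86 BMCP (6.98%, 2.60 to 14.6) and in 6 of the 40 GMP (15%, 5.71 to 29.8), and these intervals overlap. At 2 reads it was found in 19 BMCP (22.1%, 13.9 to 32.3) and 7 GMP (17.5%, 7.34 to 32.8), so the order of the shares turned and none is read from them. The populations lost cells at different steps. Of 17 BMCP with Pla2g4a, 13 also had Alox5, 7 had Alox5ap besides, and 1 had Lta4h as well. Of 10 GMP with Pla2g4a, 10 had Alox5ap, 10 had Lta4h and 1 had Alox5.

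The pair that makes leukotriene A4, Alox5 with Alox5ap, was found in 26 of the 86 BMCP (30.2%, 20.8 to 41.1) and in 7 of the 40 GMP (17.5%, 7.34 to 32.8). Of the 26 BMCP, 6 had Lta4h, 0 had Ltc4s and 20 had neither enzyme that uses the intermediate. Of the 7 GMP, 6 had Lta4h and 1 had neither. The converse set, Alox5ap and Lta4h without Alox5, made up 29 of 40 GMP (72.5%, 56.1 to 85.4) and 5 of the 86 BMCP (5.81%, 1.91 to 13.05). Alox5 without Alox5ap was found in 33 BMCP and 0 GMP, and Alox5ap without Alox5 in 17 BMCP and 31 GMP.

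The PGD2 route needs Pla2g4a, a cyclooxygenase and Hpgds, and it was found in 0 of the 86 BMCP (up to 3.49%) and in 0 of the 40 GMP (up to 7.50%), also at 2 reads. Without the release step 1 BMCP held it, replicate 63, with Ptgs1 at 110, Hpgds at 620 and Alox5 at 2041 CPM. At 2 reads 1 GMP held it as well, replicate 33, with 103 thinned reads of Ptgs1 and 2 of Hpgds. Of the 20 BMCP with Hpgds, 19 had neither cyclooxygenase, and 17 had Alox5. Over all 86 BMCP a cyclooxygenase was detected in 3 and Alox5 in 59. The lack of a cyclooxygenase in Hpgds cells was thus close to that over all BMCP. In GMP the 1 cell with Hpgds had no cyclooxygenase at that limit. Counted over all 8 members, cells of both populations held a median of 2 and at most 5. None was detected in 7 of the 86 BMCP and in 0 of the 40 GMP.

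**Figure D4:**
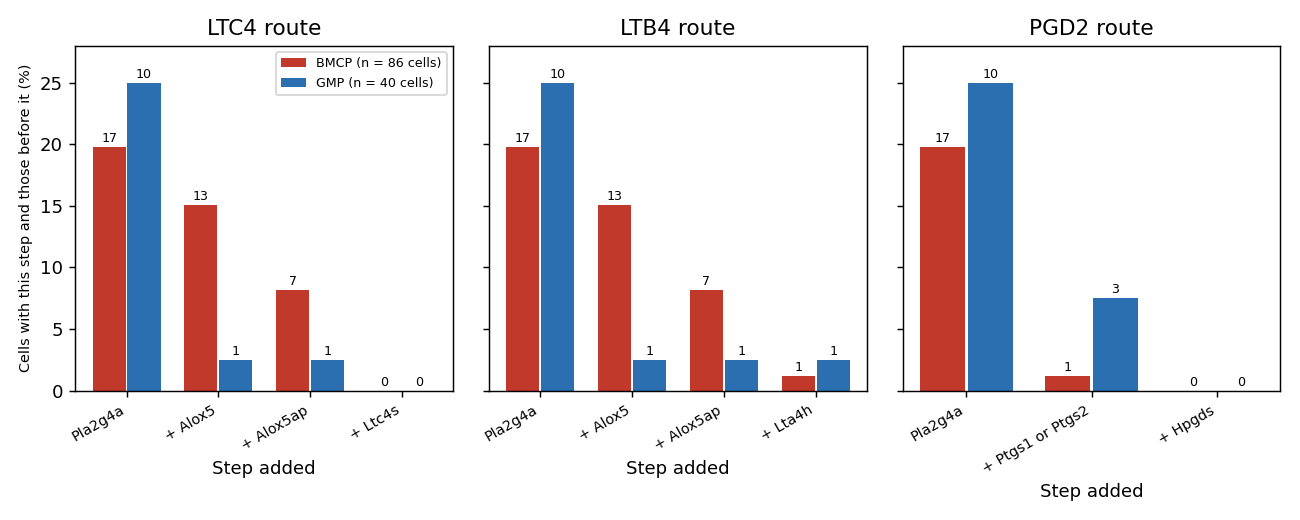
Share of cells (y, %) with each step (x) and all steps before it at 10 or more thinned reads, for 3 routes, in 86 BMCP (red) and 40 GMP (blue), with the number of cells above each bar. The LTC4 route ends at 0 cells with Ltc4s added last and the PGD2 route at 0 cells with Hpgds added last. In the PGD2 route the cyclooxygenase step already leaves 1 of 17 BMCP and 3 of 10 GMP. In each population 1 cell holds the LTB4 route.

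The members were next set beside markers of the cell types that the BMCP gate could hold, at 10 reads for both genes. Alox5 was found in 19 of 20 BMCP with the basophil protease gene Mcpt8 (95%, 75.1 to 99.9) and in 40 of the 66 without it (60.6%, 47.8 to 72.4). It was found in 16 of 17 BMCP with Fcer1a, the alpha chain of the IgE receptor (94.1%, 71.3 to 99.9), and in 43 of the 69 without it (62.3%, 49.8 to 73.7). For the mast cell chymase gene Cma1 the counts were 21 of 28 with it and 38 of 58 without it. For Car1, an erythroid carbonic anhydrase gene, they were 18 of 30 and 41 of 56. Alox5 was thus read in cells with Mcpt8, Fcer1a, Cma1 or Car1, and no cell type is read from 1 gene. Of the other basophil markers listed, Cyp11a1 was detected in 42 of the 86 BMCP, Il4 in 21 and Prss34 in 1. Of the other erythroid markers listed, Klf1 was detected in 15 and Hba-a1 in 0. Mcpt8 was also detected in 18 of the 40 GMP.

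Hpgds was read in fewer cells. It was found in 9 of 17 BMCP with Fcer1a (52.9%, 27.8 to 77.02) and in 11 of the 69 without it (15.9%, 8.24 to 26.7). It was found in 8 of 20 cells with Mcpt8, 10 of 28 with Cma1 and 4 of 30 with Car1, against 20 of the 86 BMCP (23.3%) over all. The share was thus above that of all BMCP for Mcpt8 and Cma1 and below it for Car1, without a test. In GMP, Pla2g4a was found in 7 of 20 cells with Irf8, a transcription factor of monocytes and dendritic cells (35%, 15.4 to 59.2), and in 3 of 20 without it (15%, 3.21 to 37.9), and these intervals overlap. It was found in 2 of 18 GMP with Gata2 and 8 of 22 without it. Alox5 was found in 1 of 20 GMP with Irf8 and 6 of 20 without it.

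Genes whose pattern over cells was most like a member were named where Pearson r of log2(CPM + 1) reached 0.5, as a description without a test. All points of a population come from 1 set of libraries and share their depth differences. In 89 BMCP, over 3259 genes ranked, Cpa3 was most like Alox5 (r = 0.54, and 0.55 without the 2 cells farthest from the median of Cpa3). The chemokine gene Ccl4 was most like Hpgds (r = 0.50, and 0.51 without 2 cells). No gene reached 0.5 with Pla2g4a, Alox5ap or Lta4h in BMCP. The members did not run together there, with r between pairs of members from -0.23 (Alox5 and Alox5ap) to 0.32 (Ltc4s and Ptgs2, the latter read in 1 cell). It was 0.30 between Alox5 and Hpgds and -0.01 between Pla2g4a and Lta4h.

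In 41 GMP, over 5367 genes ranked, Slc18a2, the vesicular monoamine transporter gene, was most like Alox5 (r = 0.78, and 0.71 without the 2 cells farthest from its median). Fam189b (0.63 and 0.53) and Rab37 (0.61 and 0.60) followed. Lta4h was most like Zfp706 (0.80), the chaperone gene Hspa5 (0.76) and Ctsg, cathepsin G of neutrophil granules (0.76). Without 2 cells these fell to 0.30, 0.30 and 0.59, and its r with Mpo went from 0.75 to 0.41, so the values for Zfp706, Hspa5 and Mpo rest largely on 2 cells each. Alox5ap was most like Trir (0.60), Ap2s1 (0.58) and Tsn (0.54), with 0.42, 0.17 and 0.57 without 2 cells. Pla2g4a was most like Hpcal1 (0.61), Iah1 (0.58) and Clp1 (0.51), and Ptgs1 like Shq1 (0.52) and Tshz1 (0.50).

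The BMCP came in 2 blocks of the deposited columns, numbers 1 to 47 (44 kept cells) and 48 to 94 (45 kept cells), which the labels do not describe. Alox5 stood at 929 CPM in the first block and 869 CPM in the second, with detection in 29 and 30 of 43 cells each. Alox5ap was at 229 and 111 CPM (24 and 19 cells), Lta4h at 141 and 101 CPM (14 and 13 cells), and Hpgds at 120 and 70.4 CPM (11 and 9 cells). Pla2g4a ran the other way, at 56.1 and 86.2 CPM (9 and 8 cells). The GMP fill a block of their own, and a block difference cannot be told apart from a population difference.

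A wider list of 67 eicosanoid genes, all matched, showed how the rest of the pathway lay. Of these, 35 reached 1 CPM, with 8 at least 2-fold higher in BMCP, 13 at least 2-fold lower and 14 within 2-fold, and a median log2 ratio of -0.34. Set to the spike-in reads, 3 lay at least 2-fold above GMP and 17 at least 2-fold below. The 3 above were Hpgd, Lpcat2 and Ltb4r1, and the Hpgd level is that of 1 cell. The 25.8% and 21% of all genes hold for levels set to nuclear-encoded counts. No such shares were worked out for levels set to the spike-in reads. There the median log2 ratio of all genes was -0.79, and nothing particular to the pathway is read from the 17 genes below. The shares were not tested. Among 19 other phospholipases, 5 were measured. Pla2g6 stood at 78.4 CPM in BMCP against 32.4 CPM in GMP, Pla2g16 at 96.0 and 53.2 CPM, Pla2g15 at 39.02 and 102 CPM, and Pla2g12a at 13.5 and 24.2 CPM, with 8.27 CPM in BMCP once its top cell was left out.

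All 4 genes of arachidonate activation and return to membranes had higher levels in BMCP, 1 of them by at least 2-fold. Lpcat2, a lysophospholipid acyltransferase that also makes platelet-activating factor, was at 551 and 111 CPM (log2 2.30) and was detected in 72 of the 86 BMCP and in 13 of the 40 GMP. Lpcat3 was at 168 and 85.8 CPM, Mboat7 at 160 and 94.5 CPM, and Acsl4, an arachidonate-preferring acyl-CoA synthetase, at 44.8 and 24.4 CPM. With levels set to the spike-in reads, where the median log2 ratio of all genes moved from 0.04 to -0.79, Lpcat2 stood at 1.44, Lpcat3 at 0.10, Acsl4 at 0.0040 and Mboat7 at -0.11.

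Partners and relatives of the leukotriene enzymes split. Cotl1, whose product binds 5-lipoxygenase, was at 275 CPM in BMCP against 97.4 CPM in GMP. Mgst2, a relative of Ltc4s whose product can form LTC4 in tissues without it, was at 0.0475 and 15.2 CPM (log2 -3.95) and was detected in 0 of the 86 BMCP and in 8 of the 40 GMP. Mgst1 was at 14.8 and 86.9 CPM and Mgst3 at 29.8 and 19.9 CPM. Neither Ltc4s nor Mgst2 was therefore well read in BMCP. The exporter gene Abcc1, which carries LTC4 out of cells, was at 154 and 54.8 CPM, and Abcc4, an exporter of prostaglandins, at 31.8 and 67.7 CPM, with 17.5 CPM in BMCP once its top cell was left out.

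Of the other prostanoid synthases, Tbxas1, thromboxane synthase, was at 44.7 CPM in BMCP against 74.9 CPM in GMP, Ptges3 at 37.2 and 86.3 CPM, and Ptges2 at 12.4 and 44.04 CPM, with 7.83 CPM in BMCP once its top cell was left out. Among genes of conversion and breakdown, Ptgr1, which inactivates LTB4 and prostaglandins, was at 16.5 and 151 CPM (log2 -3.11), with 7.76 CPM in BMCP once its top cell was left out. It was detected in 5 of the 86 BMCP and in 21 of the 40 GMP. Ptgr2 was at 89.5 and 57.96 CPM, Cbr1 at 106 and 74.01 CPM, and Ggt5 at 5.12 and 10.7 CPM, with 0.0483 and 2.53 CPM once the top cells were left out.

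The receptors fell on both sides, with 3 of the 8 measured at least 2-fold higher in BMCP and 5 at least 2-fold lower. Over all genes the shares were 25.8% and 21%, and the receptor counts were not tested. Some of these calls rest on 1 cell. Without their top cells, Ltb4r2 went from 1.39 to 0.0358 CPM in BMCP and Cysltr1 from 1.06 to 0.182 CPM in GMP. Ltb4r1, the high-affinity LTB4 receptor, was at 487 CPM in BMCP against 72.8 CPM in GMP (log2 2.72) and was detected in 62 of the 86 BMCP and in 15 of the 40 GMP. It met Alox5 in 45 BMCP, and 4 of the 86 BMCP and 4 of the 40 GMP held it with Alox5, Alox5ap and Lta4h. The prostaglandin E receptor genes Ptger3 and Ptger4 were at 0.0356 and 28.9 CPM and at 15.3 and 33.1 CPM, the latter at 14.5 CPM in GMP without its top cell. Ptgir, the prostacyclin receptor gene, was at 0.0475 and 11.9 CPM, with 0.510 CPM in GMP once its top cell was left out.

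**Figure D5:**
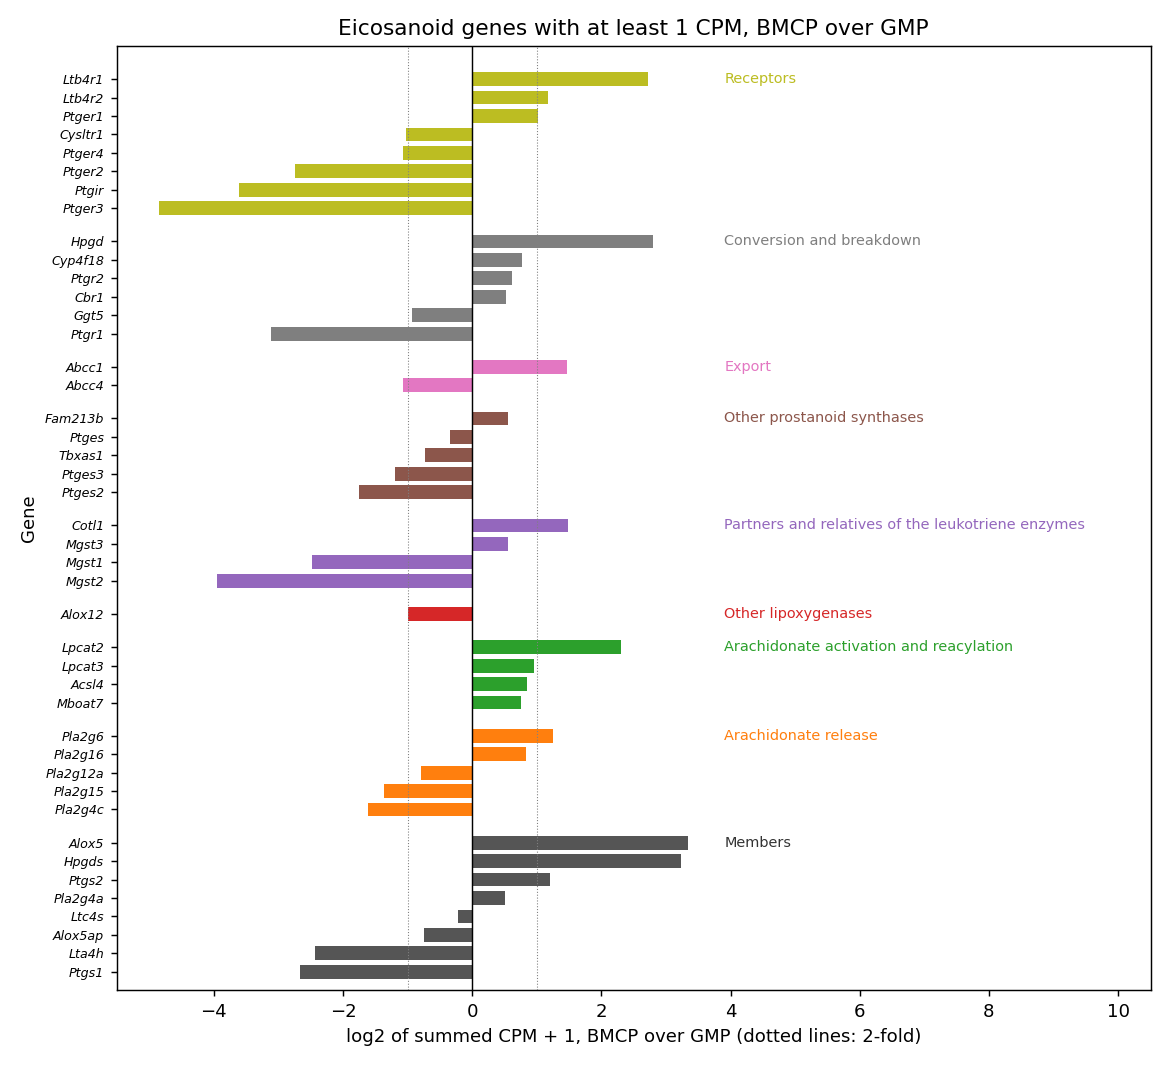
Ratio of BMCP to GMP as log2 of their summed CPM plus 1 (x) for the 8 members and the 35 other pathway genes with at least 1 CPM (y), colored and grouped by role, with dotted lines at 2-fold. Alox5 at 3.34 and Ltb4r1 at 2.72 lie to the right, and Mgst2 at -3.95 and Lta4h at -2.43 to the left.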

How the data were processed

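The authors deposited raw read counts for each gene in each cell. They used GSNAP, HTSeq 0.5.3p3 and mm10, per the submitters' processing notes, which name no annotation release. Per the labels' protocols, oligo-dT-primed cDNA was amplified over 23 PCR cycles with ERCC spike-ins, made into libraries with Nextera XT and read as single ends of 50 bases. Reads without a gene, ambiguous and unaligned reads stayed out of totals, and among kept cells were 17.6%, 3.77% and 30.4% of the reads for BMCP and 11.1%, 6.03% and 27.5% for GMP.

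Symbols and coordinates are from GENCODE vM21 (GRCm38), and 45229 of 46078 gene rows had a symbol. A cell was kept with at least 50000 nuclear-encoded counts, 1000 genes, at most 10% mitochondrial and 50% spike-in reads, which left out 5 of 94 BMCP and 6 of 47 GMP. No pair of cells had identical counts. Cells were sorted 1 per well, and doublets were not called. Ratios are log2 of summed CPM plus a pseudocount of 1. Shares have exact Clopper-Pearson limits at 95%, and a share of 0 is given with the upper limit that a count of 0 allows (3 counts of the total).

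The members, lists and limits were chosen with earlier results of these data known. Named genes were all members, pathway genes with at least 10 CPM in either population, and, per member detected in at least 10% of a population's cells, up to 3 genes with r of at least 0.5 among genes with 20 CPM and detection in 25% of cells. The values of 1 receptor gene that the rule names are not reported here. Ranges and counts beyond these, pathway genes named below 10 CPM, and cells named, were chosen after the values were seen. The ratio was tested on simulated data. Alternatives changed scaling, pseudocount, weight of cells, filters, thinning, limits and cells left out. Calculations ran in Python 3.11.15 with scipy 1.17.1, pandas 2.3.3 and numpy 2.4.6, and figures in matplotlib 3.10.9.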

Additional observations from a re-analysis of the deposited data

How the results depend on the processing

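Over 15 alternatives, 4 to 5 members were at least 2-fold apart. Dropping the filter on low genes, 1 of the 15, could not change any member, since all 8 had at least 1 CPM. Alox5 (log2 2.47 to 3.72) and Hpgds (2.41 to 5.68) were at least 2-fold higher in BMCP in 15 of 15, and Lta4h (-3.29 to -2.15) and Ptgs1 (-3.41 to -1.92) at least 2-fold lower in 15 of 15. Alox5ap ran from -1.61 to -0.19 and was at least 2-fold lower in 2 of 15, Pla2g4a from -0.35 to 0.82 with the opposite sign in 1 of 15, and Ltc4s from -0.82 to 0.38 with the opposite sign in 2 of 15. Ptgs2 (0 to 3.81) was no longer 2-fold apart in 5 of the 15. The median of all genes was -0.79 with spike-in scaling, against 0.04, 0.11 with median-of-ratios and 0.09 with TMM scaling. The LTB4 route share in BMCP was 6.98% at 2 thinned reads, 6.98% without Pla2g4a, and 0.0% in BMCP numbers 48 to 94, against 1.16%. In GMP it was 15% without Pla2g4a, against 2.50%. The cause of these moves was not tested. No paired analysis was possible because the numbers name single cells and each population is 1 sample without a test. At 200000 reads, absence of a low transcript such as Ltc4s or Ptgs2 could not be told from a missed one.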

Other observations

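The cells that did not pass the filter were not compared. Among the 5 BMCP left out, Alox5 had 0 to 298 reads and Lta4h had 0. Among the 6 GMP left out, Alox5 had 0 to 2 reads, Alox5ap 0 to 564 and Lta4h 0 to 566. The 3 of these GMP with 493536 to 740064 nuclear-encoded counts held Alox5ap at 211, 363 and 564 reads and Lta4h at 169, 187 and 566 reads.

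The gene Ltb4r2, a second LTB4 receptor, had 117 reads in BMCP and 3 in GMP, and its BMCP level of 1.39 CPM was 0.0358 CPM without its top cell. Hpgd, which breaks down prostaglandins, had 504 reads in BMCP and 0 in GMP, at least 111-fold above the GMP floor of 3 counts over the group, but its BMCP level of 5.98 CPM was 0.0359 CPM without its top cell. Both values are those of 1 cell each.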
